A study of Mus musculus with 5 samples.

Results

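The cytosolic ribosomal protein genes were followed over 5 liver arrays. A gene was taken when the platform annotation gives a probe set 1 gene symbol of the Rps or Rpl type, with ribosomal protein kinases such as Rps6ka and mitochondrial ribosomal proteins left out. This gave 48 of the 12393 genes with a single-symbol probe set, 22 for proteins of the small subunit and 26 for proteins of the large subunit, and each gene is represented by its brightest probe set. The arrays were hybridised with liver RNA from C57B/L mice that were 8 weeks old at the start and were kept for 2 weeks before the feeding began. The 5 groups had the atherogenic diet for 10 weeks with atorvastatin during the last 3 weeks, the diet alone for 10 weeks, standard chow for 10 weeks, the diet for 1 week, or standard chow for 1 week. Atherogenic diets are usually rich in fat and cholesterol and promote artery disease, though the composition of this one is not given in the sources, and atorvastatin is a statin, which blocks the rate-limiting enzyme of cholesterol synthesis.

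Each group is 1 array of RNA from pooled livers, so no difference here has a replicate check and nothing could be tested. Precision is limited by this number of arrays, and how many livers went into a pool is not given in the sources. The sample grouped as 1 week of diet carries the atherogenic diet in its title, description and protocols, but chow in its source name. The 7 measured hepatocyte marker genes, among them those for albumin and transthyretin, lay above the detection floor defined below on at least 1 array, and their summed signal ran between 180094 and 344918. The atorvastatin array stood apart in its 18S ribosomal RNA control signal, which was 13944 there, against 437.3 to 2185 on the other 4 arrays.

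Cytosolic ribosomes make nearly all of a cell's protein, and each is built from a small and a large subunit around ribosomal RNA. The small subunit reads the messenger RNA and the large subunit joins the amino acids. Messenger RNAs of ribosomal proteins begin with a C followed by a run of pyrimidines, the terminal oligopyrimidine (TOP) motif, through which the kinase complex mTORC1 and the protein Larp1 control their translation. Hepatocytes carry many ribosomes because they secrete most plasma proteins.

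Start sites are shown for genes at both ends of the comparison of atorvastatin with the diet alone, and for genes that show the motifs. Of the 48 genes, 42 have an entry among the RefSeq promoters of GRCm38.p6, which run over 250 bases before and 50 bases from the annotated start. The windows below hold 60 bases before the start and 20 from it, 5′ to 3′ on the gene's strand. Capitals mark CCGGAAG, the core of a site for ETS factors, TCTCGCGA on either strand, or a pyrimidine run at the start. TCTCGCGA is a part of the palindrome TCTCGCGAGA, a motif of housekeeping promoters. The first 3 genes had the highest ratios for atorvastatin over the diet and the next 3 the lowest.
Rpl27, chr11:101442185-101442264, plus strand: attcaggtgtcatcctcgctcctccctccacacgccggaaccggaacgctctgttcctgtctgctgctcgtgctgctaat
Rpl41, chr10:128549149-128549228, minus strand: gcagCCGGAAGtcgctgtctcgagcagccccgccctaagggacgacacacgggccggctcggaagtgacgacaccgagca
Rpl11, chr4:136053374-136053453, minus strand: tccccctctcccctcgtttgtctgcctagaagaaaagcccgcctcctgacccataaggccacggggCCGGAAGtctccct
Rps25, chr9:44407654-44407733, plus strand: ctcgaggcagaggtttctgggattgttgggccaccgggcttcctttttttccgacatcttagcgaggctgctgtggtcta
Rpl39, chrX:37085203-37085282, minus strand: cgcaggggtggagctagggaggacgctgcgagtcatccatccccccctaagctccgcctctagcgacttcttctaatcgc
Rpl37, chr15:5116553-5116632, plus strand: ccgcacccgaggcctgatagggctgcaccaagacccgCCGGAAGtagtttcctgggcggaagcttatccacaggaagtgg
Rpl27, Rps25 and Rpl39 have none of the marked letters in these windows, while Rpl41, Rpl11 and Rpl37 each have CCGGAAG. In the full promoters Rps25 and Rpl39 have CCGGAAG as well, outside these windows, and Rpl27 does not. These letters thus occur at both ends of the order.

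The next 4 genes show the pyrimidine run or the palindrome near the start. Rpl35 and Rps18 are shown for the run, Rps28 for the palindrome and Rps6 for both.
Rpl35, chr2:39005112-39005191, minus strand: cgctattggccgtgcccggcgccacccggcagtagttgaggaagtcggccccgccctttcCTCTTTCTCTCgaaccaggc
Rps18, chr17:33955646-33955725, minus strand: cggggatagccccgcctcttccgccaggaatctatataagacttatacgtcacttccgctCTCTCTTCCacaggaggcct
Rps28, chr17:33824543-33824622, minus strand: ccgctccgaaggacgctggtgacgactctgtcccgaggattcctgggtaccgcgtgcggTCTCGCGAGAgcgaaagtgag
Rps6, chr4:86857348-86857427, minus strand: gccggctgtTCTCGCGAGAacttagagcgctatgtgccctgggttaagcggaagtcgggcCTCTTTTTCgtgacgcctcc
Over the full promoters, searched on both strands, CCGGAAG was in 21 of 42 members (50.0%), against 9.93% of 27025 genes, and TCTCGCGA was in 9 members (21.4%), against 1.13% of genes. Both were in 4 members. GGGCGG, the core of a GC box, was in 24 members (57.1%), against 38.2% of genes. A run of a C and at least 4 more pyrimidines, beginning on the gene's strand within 3 bases of the annotated start, was in 16 members (38.1%), against 13.5% of genes. The motifs were more frequent in these promoters than in all promoters. The median log2 ratio of atorvastatin over the diet was 0.31 for measured members with CCGGAAG and 0.28 for those without it. The same medians were 0.30 with TCTCGCGA and 0.30 without, 0.32 with the run and 0.21 without, and 0.32 with GGGCGG and 0.14 without. A match of letters is a description of the sequence and no evidence of binding.

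Signals are in linear array units and cannot be compared between genes, because each probe set has its own response. A signal counted as measured above a floor of 138.8, the 40th percentile of all signals. Of the 48 genes, 43 lay above the floor on all 5 arrays, 2 on some and 3 on none, and 37 were among the 1240 genes that make up the brightest 10%. Over the 43 genes, the median log2 signal relative to each gene's own mean was 0.16 with atorvastatin, -0.11 on the diet for 10 weeks and 0.04 on chow for 10 weeks. It was -0.18 on the diet for 1 week and -0.003 on chow for 1 week. The atorvastatin array was the highest of the 5 for 20 of the 43 genes, 46.5%, against 19.5% of the 6929 genes measured on all arrays. The 1-week diet array was the lowest for 21 genes (48.8%, against 25.0% of all genes) and the 10-week diet array for 15 genes (34.9%, against 19.3%). Both arrays of the diet without the drug therefore held the lowest value for most of these genes.

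**Figure D1:**
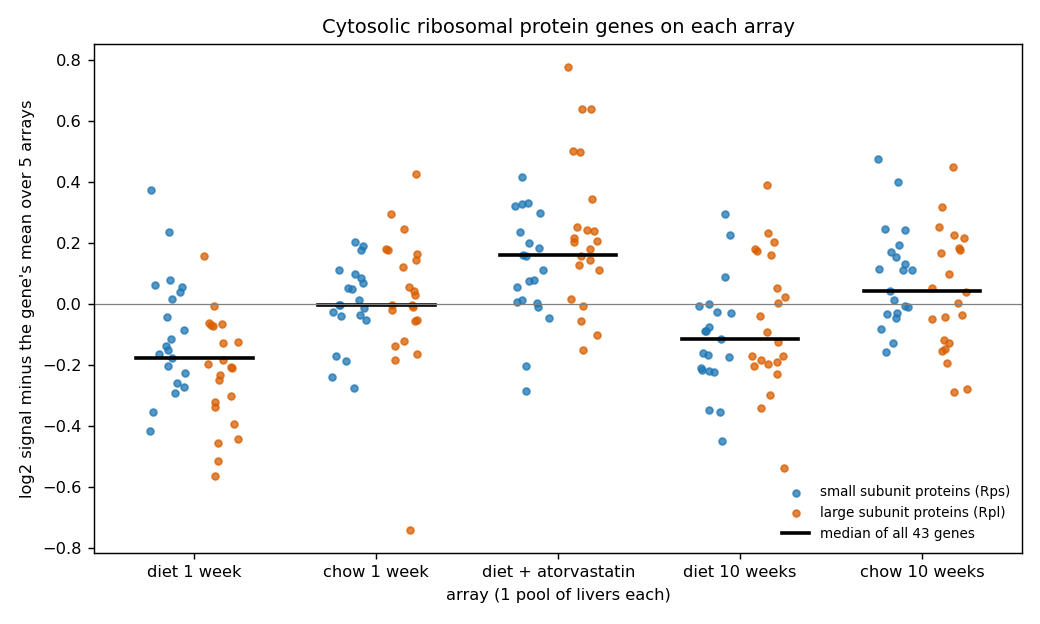
Log2 signal of each of 43 ribosomal protein genes minus that gene's mean over the 5 arrays (vertical axis), by array (horizontal axis, 1 pool of livers each). Points are genes, small subunit left and large subunit right, and the bar is the median, which is 0.16 on the atorvastatin array, -0.11 on the 10-week diet array and -0.18 on the 1-week diet array.

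The range between arrays was taken over the 43 members above the floor on all 5. Its median was 0.51 on the log2 scale, against 0.72 for all genes measured on all arrays and 0.62 for the brightest 10% of genes. The smallest range was that of Rps20, a protein of the small subunit head, with a signal of 6889 with atorvastatin, 6588 on the 10-week diet and 6799 on 10-week chow, and 7247 on the 1-week diet against 7198 on 1-week chow. Its 5 arrays spanned 0.14 on the log2 scale, followed by 0.25 for Rpl19 and 0.32 for Rpl7, both of the large subunit. For Rps20 and Rpl7 the small range is that of the chosen probe set. Another bright probe set of Rps20 ran between 3663 and 6168.5, and those of Rpl7 between 3053.5 and 5882 and between 5291 and 8783. The largest range among the 43, 1.52, was that of Rpl27a, a large subunit protein. It had 1674 with atorvastatin, 1092 on the 10-week diet and 1217 on 10-week chow, but 684.7 on the 1-week diet and 585.6 on 1-week chow. Both 1-week arrays were thus lower for Rpl27a than all 3 arrays of 10 weeks. Rpl27 followed with a range of 1.03 and Rpl41 with 0.96.

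With atorvastatin during the last weeks of the diet, ribosomal protein genes had higher signals than with the diet alone. Of 43 measured genes, 37 had a log2 ratio above 0, against 47.5% of all 9295 measured genes, and the median was 0.30 (a 1.23-fold higher signal), against -0.02 for all genes and -0.00 for the brightest 10% of genes. The quartiles were 0.09 and 0.43. The differences were small for single genes: 0 of 43 passed 2-fold, against 4.28% of all genes, and 7 were at least 1.5-fold higher, against 9.04%. None was 1.5-fold lower, against 10.1% of all genes. The median was 0.30 for the small subunit, with 18 of 21 above 0, and 0.30 for the large subunit, with 19 of 22 above 0. The medians of the subunits were thus of the same size.

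Among large subunit proteins, Rpl27 had the highest ratio. Its signal was 9549 with atorvastatin, against 5235 on the diet, with 6307 on 10-week chow, and it was 4668 on the 1-week diet, against 5903 on 1-week chow. On this probe set the atorvastatin array was the highest of the 5 and 1.82-fold above the diet (log2 0.87). The other measured probe sets of Rpl27 gave smaller ratios to the diet, 0.39 and 0.42. They were highest on the 1-week diet (1514.9 and 3466.6), with ratios to 1-week chow of 0.46 and 0.70, opposite to the chosen one. Rpl41, a very short peptide between the subunits, had 22154 with atorvastatin, against 12345 on the diet, with 11719 on 10-week chow, and 11372.5 on the 1-week diet, against 15933 on 1-week chow. Its log2 ratio to the diet was 0.84. Rpl11 forms a particle with Rpl5 and the 5S ribosomal RNA that can bind the p53 regulator Mdm2. Rpl11 had 9359 with atorvastatin, against 5225 on the diet, with 5964 on 10-week chow, and 4868 on the 1-week diet, against 8881 on 1-week chow. For Rpl11 the atorvastatin and 1-week chow arrays were high and the other 3 low, and its ratio to the diet was 0.84. The others at least 1.5-fold higher were Rplp2 (log2 0.75), Rpl8 (0.69), Rps9 (0.68) and Rpl27a (0.62). Rpl8 lies near the catalytic centre of the large subunit. Its signal was 7011 with atorvastatin, against 4339 on the diet, and the remaining 3 arrays lay between 4071 and 5164.

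The stalk proteins recruit the elongation factors to the large subunit. Rplp2 had 8501 with atorvastatin, against 5043 on the diet, with 8294 on 10-week chow, and 7271 on the 1-week diet, against 8079 on 1-week chow. For Rplp2 the 10-week diet array was the only low one, and the atorvastatin array lay beside the chow arrays. Rplp0, the base of the stalk, had 9830 with atorvastatin, against 9424 on the diet, with 7649 on 10-week chow (ratio to the diet 0.06). The 2 stalk proteins therefore differed.

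Of the small subunit proteins chosen for their roles, Rps14, whose gene lies in the region lost in the human 5q- syndrome, had 13871 with atorvastatin, against 10386 on the diet (log2 0.42). Rps4x, encoded on the X chromosome, had 12376 with atorvastatin, against 9546 on the diet (0.37), and Rpsa, also known as the laminin receptor precursor, had 6738 against 5368 (0.33). Rps3, at the entry of the messenger RNA channel, had 10814 with atorvastatin, against 8964 on the diet (0.27). These 4 lay near or above the median of the list. Rps19, which is mutated in human Diamond-Blackfan anaemia, was at 0.13, and Rps6, the substrate of the S6 kinases, at -0.07. Of large subunit proteins, Rpl13a was at 0.46 and Rpl22, which binds RNA, at 0.29.

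The lowest ratio was that of Rps25, a small subunit protein used in initiation at some viral internal entry sites. Rps25 had 145.6 with atorvastatin, against 205.5 on the diet, with 198.3 on 10-week chow, and it was close to the floor on all arrays (log2 -0.50). Rpl39, which lines the exit tunnel, had 566.9 with atorvastatin, against 771.1 on the diet (-0.44). Rpl37 had 1627 with atorvastatin, against 2083 on the diet (-0.36). The chosen probe sets of these 3 genes were lower with atorvastatin, opposite to most members. For Rpl37 this holds for that probe set alone, since 3 others, annotated also with a pseudogene or retrocopy, had ratios of 0.40, 0.24 and 0.59. Among the 37 members with a mean signal of 8 or more times the floor the median was 0.33.

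**Figure D2:**
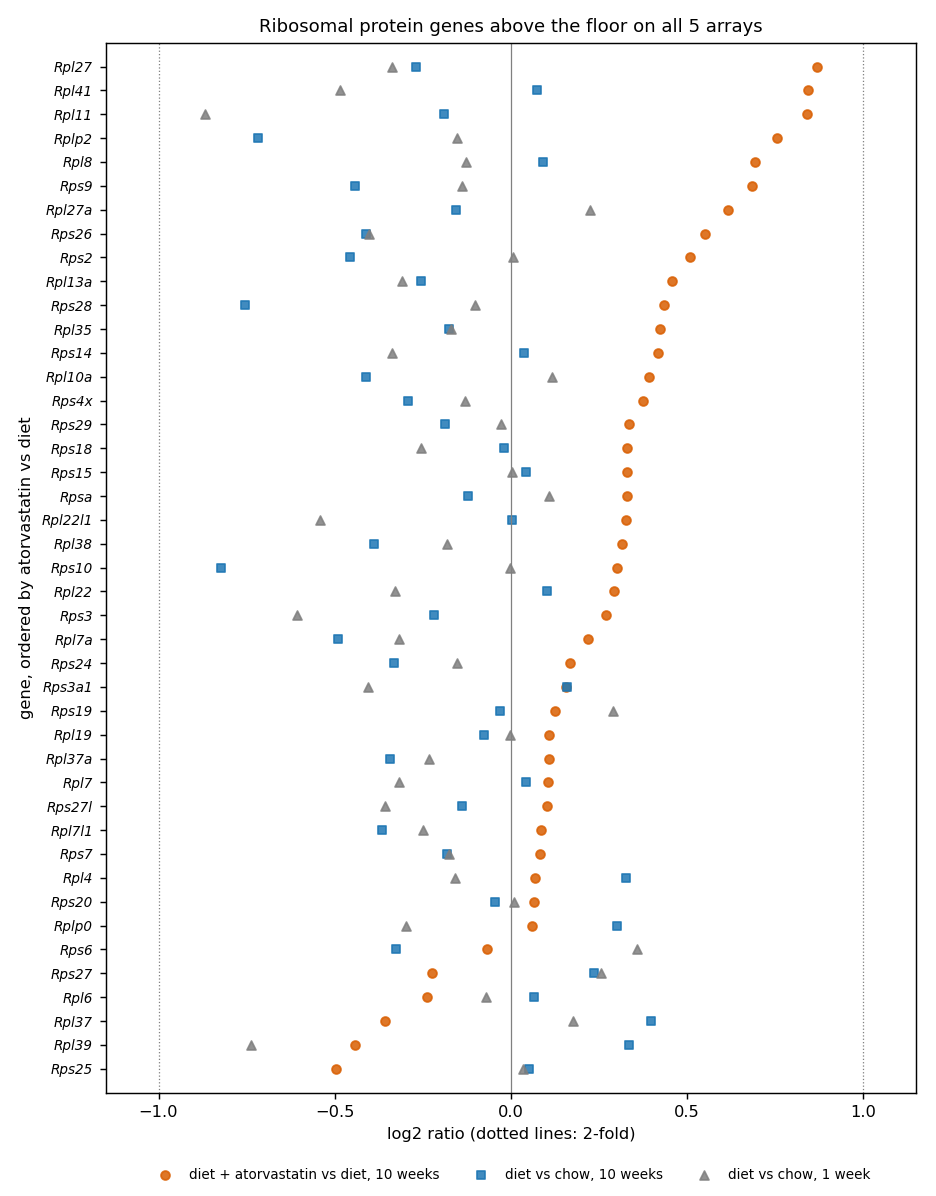
Log2 ratios (horizontal axis, dotted lines at 2-fold) of the 43 ribosomal protein genes above the floor on all 5 arrays (vertical axis, ordered by atorvastatin over the diet). Circles compare the diet with atorvastatin with the diet alone, squares the diet with chow at 10 weeks and triangles the diet with chow at 1 week; 37 of the 43 circles lie right of 0, with Rpl27 at 0.87 and Rps25 at -0.50 as the ends.

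There were 100 single-symbol probe sets for the 48 genes, and of 40 measured ones that were not the brightest, 34 lay above 0, with a median of 0.36. Probe sets of the x and s types can bind transcripts of related genes, and 16 members are represented by one. Single-symbol probe sets of these types had a median of 0.42, with 35 of 40 above 0, and the other types 0.29, with 36 of 43 above 0. Of 19 genes with at least 2 measured probe sets, 14 had all of them above 0. Rpl37a disagreed most, with 0.64 and 0.11 for its bright probe sets and -1.06 for a dim one, which had a signal of 277.8 with atorvastatin, against 579.3 on the diet. Rpl41 ran between -0.59 for a dim probe set and 0.84 for the brightest. Levels of Rpl37a and Rpl41 are therefore uncertain, and cross-hybridisation between processed pseudogenes and these genes was not tested.

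**Figure D3:**
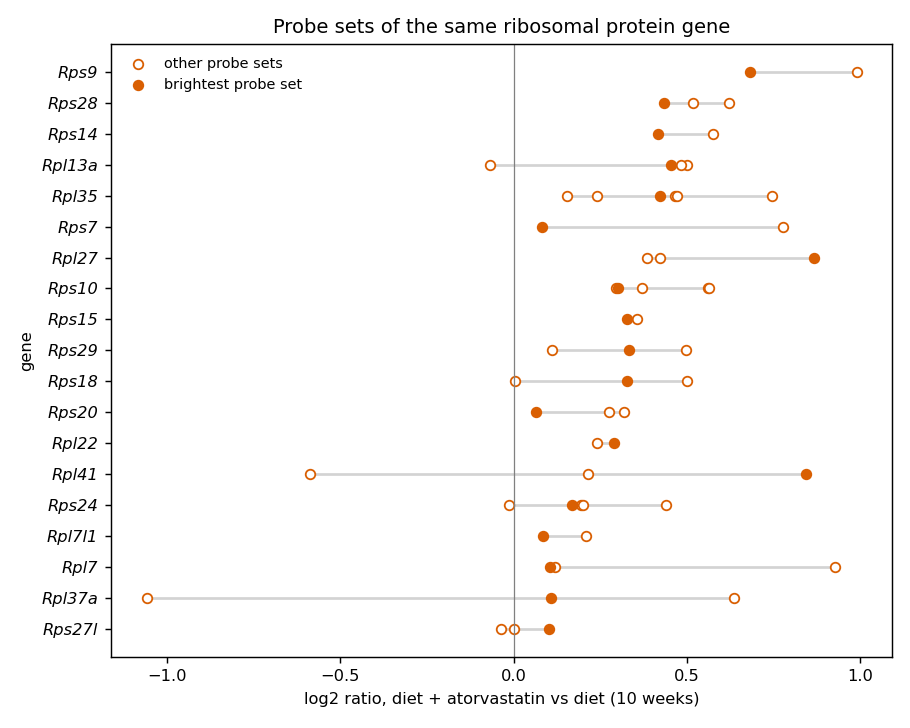
Log2 ratio of the diet with atorvastatin over the diet alone at 10 weeks (horizontal axis) for 59 probe sets of 19 ribosomal protein genes with at least 2 measured probe sets (vertical axis). Filled points are the brightest probe set of the gene and open points the others, and 53 of the 59 lie above 0.

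Probe sets annotated with a gene and its own pseudogene or retrocopy do not have a single symbol and were left out of the members. There are 35, for 11 genes, and 6 of those genes (Rpl5, Rpl13, Rpl31, Rpl36, Rps13 and Rps15a) have no other probe set here. Of 32 measured ones 26 lay above 0 for atorvastatin over the diet, with a median of 0.23. The probe set of Rps13, which was chosen after its values were seen, had 2390 with atorvastatin, against 1110 on the diet, with 823.0 on 10-week chow, and 1858 on the 1-week diet, against 1897 on 1-week chow. Its ratio to the diet, 1.11, passed 2-fold.

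Rps6 is represented by a probe set with signals of 360.1 to 567.9, while the brightest of several shared ones had 16181 to 23721. That shared one gave 0.16 for atorvastatin over the diet, against -0.07 for the chosen one, and 0.13 for atorvastatin over 10-week chow, against -0.395. It gave -0.15 for the diet over chow at 1 week, against 0.36, and 0.40 for the diet at 10 weeks over 1 week, against -0.59. The other measured shared ones all lay above 0 at 1 week (0.002 to 0.50), like the chosen one. They ran from -0.44 to 0.52 for the diet at 10 weeks over 1 week. For atorvastatin they ran from -0.61 to 0.31 over the diet and from -0.70 to 0.51 over 10-week chow. The direction for Rps6 thus depended on the probe set in these 4 comparisons, and the values for Rps6 below are those of the chosen one.

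Several related gene lists were set beside the ribosomal proteins, and the differences from them were not tested. Fau, which encodes the small subunit protein eS30 under another symbol and so is no member, had 10331 with atorvastatin, against 13599 on the diet (-0.40), opposite to most members. Mitochondrial ribosomal proteins had a median of 0.03, with 38 of 73 above 0, and proteasome subunits 0.03, with 20 of 37 above 0. Past 2-fold in these lists were Mrps34 (1.08), Psmd13 (1.38) and Psmb9 (-1.05). The 16 measured elongation factors and other genes with TOP messenger RNAs had a median of 0.07, with 11 above 0, among them the elongation factors Eef1a1 (0.01), Eef1b2 (0.28) and Eef2 (0.29). Translation initiation factors had -0.01, with 11 of 22 above 0, and ribosome biogenesis factors, such as fibrillarin Fbl (0.01) and nucleolin Ncl (-0.08), had 0.03, with 22 of 38 above 0. RNA polymerase I and its factors had -0.04, with 5 of 11 above 0. There the subunit Polr1b was higher, with 281.1 with atorvastatin, against a signal below the floor on the diet (log2 1.02, a bound). Of 13 measured genes of mTORC1 and of TOP control, 5 lay above 0, with a median of -0.05. The kinase Mtor was at -0.71, and its partner Mlst8 (-1.08) and the inhibitor Tsc1 (-1.39) were below the floor with atorvastatin, so that their ratios are bounds.

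Some measures of other kinds differed between the same arrays. The 18S control signal was 13944 with atorvastatin, against 1002 on the diet, 13.9-fold higher. The summed signal of 12 Kupffer cell and macrophage markers was 28621 with atorvastatin, against 19213 on the diet, and 11 of the 12 had a ratio above 0, with a median of 0.60. None of the 12 was below the floor on all arrays. The summed signal of 8 endothelial markers was 5739 with atorvastatin, against 7231 on the diet, with a median of -0.13 and 3 of 8 above 0. Of these, Cdh5 had 196.2 with atorvastatin, against 1033.5 on the diet. The part of the 18S signal and of these cells in the ribosomal protein ratios was not tested. In a bulk liver sample, a different number of cells of a type and a different amount of RNA per cell cannot be told apart.

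**Figure D4:**
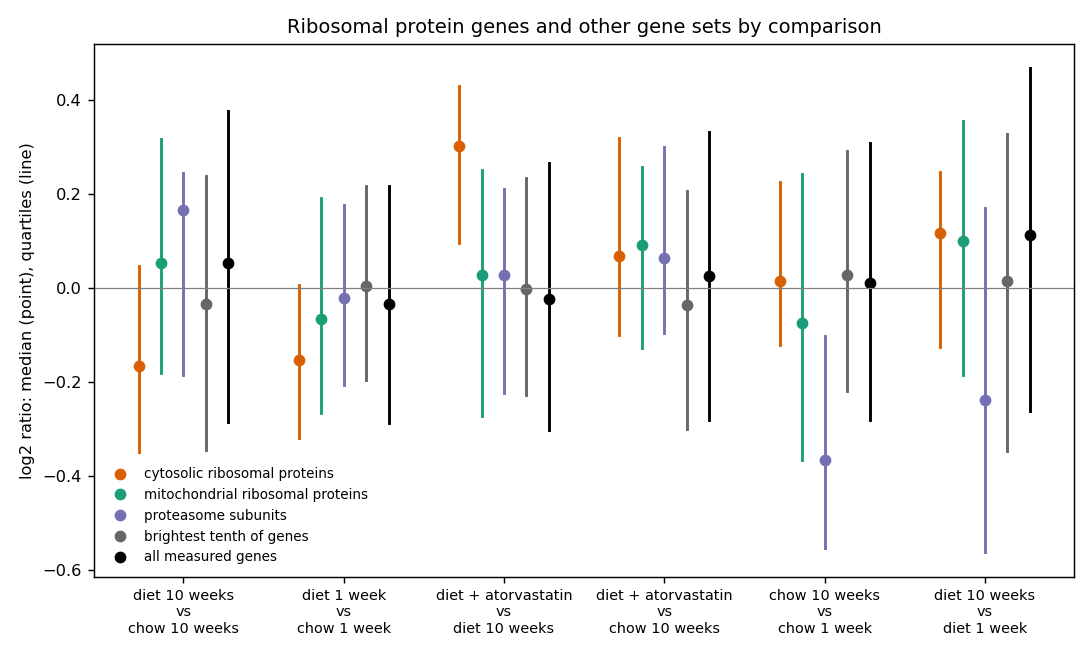
Median log2 ratio (points) and quartiles (lines) on the vertical axis for the ribosomal protein genes and 4 other gene sets, by comparison on the horizontal axis. The cytosolic ribosomal proteins have a median of 0.30 for the diet with atorvastatin over the diet, -0.17 for the diet over chow at 10 weeks and -0.155 for the diet over chow at 1 week.

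After 10 weeks of the atherogenic diet, ribosomal protein genes had lower signals than on chow. Of 44 measured genes 29 had a log2 ratio below 0, against 45.7% of all 9232 measured genes, and the median was -0.17 (0.891 of chow), against 0.05 for all genes and -0.04 for the brightest 10% of genes. No member passed 2-fold on its chosen probe set (0 of 44, against 6.65% of all genes), and 3 were at least 1.5-fold lower, against 10.9%. Of 41 measured single-symbol probe sets that were not the brightest, 30 lay below 0, with a median of -0.23. Of these, 3 were at least 2-fold lower, 1 each of Rps10 (-1.20), Rps7 (-1.14) and Rpl27 (-1.10). The size depended on the scaling, since the median was -0.05 after quantile normalization and -0.03 after cyclic loess. The small subunit had a median of -0.18, with 16 of 21 below 0, and the large subunit -0.16, with 13 of 23 below 0.

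The lowest was Rps10, at the messenger RNA entry of the small subunit, with 10075 on the diet, against 17824 on chow (log2 -0.82). Rps10 had 12415 with atorvastatin, 12458 on the 1-week diet and 12478 on 1-week chow, so the 10-week chow array was the high one. Its 5 measured probe sets disagreed in size, with ratios of -1.20 to -0.01, and the one at -0.01 had 8223 on the diet, against 8273 on chow. Rps28, at the messenger RNA exit, had 10638 on the diet, against 17946 on chow (-0.75), and its 1-week values were 12569.5 on the diet and 13487.5 on chow. The 10-week chow array was again the high one, and the other 2 probe sets of Rps28 gave -0.96 and -0.91. Rplp2 came next (-0.72). The highest were Rpl37, with 2083 on the diet, against 1582 on chow (0.40), Rpl39, with 771.1 against 611.0 (0.34), and Rpl4, with 13578 against 10834 (0.33). The comparison of atorvastatin with the diet shares the 10-week diet array, and there Rpl37 was at -0.36 and Rpl39 at -0.44. Of the stalk, Rplp0 was at 0.30.

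In the same comparison proteasome subunits had a median of 0.16 and mitochondrial ribosomal proteins 0.05, where Mrpl45 passed 2-fold with 709.2 on the diet, against 320.1 on chow. The TOP list had -0.21, with 11 of 16 below 0, and ribosome biogenesis factors -0.21, with 26 of 39 below 0. Of the biogenesis factors 3 were at least 2-fold lower, all with a dim or floored signal on the diet. These were Nop56, a core protein of box C/D particles, with 148.9 on the diet, against 434.7 on chow (-1.55), and Rrs1 (-2.36) and Nop2 (-1.47), both bounds. Polr1b was also lower, a bound of -1.31. The hepatocyte markers had a median of -0.46, with 0 of 7 above 0, and the Kupffer cell and macrophage markers 0.775, with 11 of 11 above 0. The endothelial markers had 0.55, with 8 of 8 above 0. The spike-in controls had a geometric mean of 1538 on the diet, against 5747 on chow, and the 3′ to 5′ ratio of beta-actin was 1.17 on the diet, against 1.73 on chow. On both measures the 10-week chow array was the highest of the 5. The part of these markers and controls in the ribosomal protein ratios was not tested.

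After 1 week the chosen probe sets of most of these genes were lower on the diet as well. Of 44 measured genes 32 lay below 0, against 53.9% of all 8799 measured genes, with a median of -0.155, against -0.03 for all genes and 0.00 for the brightest 10% of genes. The large subunit had a median of -0.24, with 19 of 22 below 0, and the small subunit -0.07, with 13 of 22 below 0. The difference between the subunits was not tested. The median was -0.08 when all probe sets of a gene were averaged. Of 40 measured single-symbol probe sets that were not the brightest, 22 lay below 0, with a median of -0.05. Of 32 measured ones shared with a pseudogene or retrocopy, 18 lay below 0, with a median of -0.03. These other probe sets thus lay near the values of all genes. Markers of some cell types lay below 0 as well, with medians of -0.16 for hepatocytes (6 of 7 below 0), -0.17 for Kupffer cells and macrophages (9 of 12) and -0.39 for endothelial cells (6 of 8). Stellate cell and fibroblast markers were at -0.003 (3 of 5 below 0), and lymphocyte markers at 0.10 (4 of 6 above 0). The 2 measured neutrophil markers had a median of 0.11, the 2 of pancreas -0.33, and the 1 of red blood cells was at -0.19. The 18S control was 437.3 on the diet, against 2185 on chow. The part of these measures in the ratios was not tested. Rpl11 was lowest, with 4868 on the diet, against 8881 on chow (-0.87), followed by Rpl39, with 398.7 against 665.2 (-0.74), and Rps3, with 7150 against 10884 (-0.61). Rps6, with 567.9 on the diet, against 442.9 on chow (0.36), and Rps19, with 4685 against 3830.0 (0.29), lay at the other end. In the other lists at 1 week, the biogenesis factors Nop2 (1.03) and Tsr1 (1.10), both bounds, passed 2-fold. The mTORC1 inhibitor Ddit4 passed it downward, with 308.7 on the diet, against 617.8 on chow.

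Rps4l, a paralog of Rps4x, was the 1 gene of 44 past 2-fold at 1 week, against 2.3% of all genes. It had 471.6 on the 1-week diet, against 163.1 on 1-week chow (log2 1.53), and 51.4 with atorvastatin, 38.7 on the diet and 39.6 on chow at 10 weeks, all below the floor. The 2 arrays of 1 week were thus the high ones. With a floor at the 60th percentile its ratio was 0.74.

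The diet comparisons at 1 and 10 weeks share no array. In both, 21 of 43 genes measured in both had a ratio below 0 (48.8%, against 23.1% of 8423 genes), and 4 had a ratio above 0 in both (9.3%, against 23.2%). Most members lay below 0 in each comparison alone (29 of 44 and 32 of 44). The overlap therefore does not show that the same genes went together at both times.

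In the median of these genes the atorvastatin array lay close to 10-week chow, while single genes differed in both directions. Of 44 measured genes 29 were above 0, against 52.2% of all genes. The median was 0.07, against 0.03 for all genes and -0.04 for the brightest 10% of genes, and the quartiles were -0.10 and 0.32. Among members at 8 or more times the floor the median was 0.14, with 27 of 37 above 0. None passed 2-fold (0 of 44, against 5.51% of all genes), and 4 were at least 1.5-fold higher, against 11.8%. The highest were Rpl41 (0.92), Rpl8 (0.78) and Rpl11 (0.65), and the lowest with both signals above the floor were Rps10 (-0.52), Rps25 (-0.45) and Rps6 (-0.395). The other measured probe sets of Rps10 disagreed in sign, with ratios of -0.63, -0.23, 0.07 and 0.29. After cyclic loess the median was 0.16, and it was 0.14 after quantile normalization. The 18S control was 18.9-fold higher on the atorvastatin array than on 10-week chow. The Kupffer cell and macrophage markers had a median of 1.43, with 12 of 12 above 0, and the hepatocyte markers -0.51, with 0 of 7 above 0; their part was not tested.

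Chow at 10 weeks against chow at 1 week shows how far 2 arrays of the same feed lay apart, with age and feeding time differing too. Of 45 measured genes 23 were above 0, against 51.1% of all genes, and the median was 0.02, against 0.01. After quantile normalization and after cyclic loess the members lay below 0 in 27 and 28 of 45 genes, with medians of -0.07 and -0.08. Rpl27a was the 1 gene past 2-fold, against 4.39% of all genes, with 1217 on 10-week chow, against 585.6 on 1-week chow (1.06). It missed 2-fold when both its probe sets were averaged (0.79) and with a pseudocount in place of the floor (0.94). Rps10 (0.51) and Rpl7a (0.59) were the next highest with both signals above the floor, and Rpl11 (-0.57), Rpl41 (-0.44) and Rpl22l1 (-0.42) the lowest. The chow arrays also differed in cell type markers. Hepatocyte markers had a median of 0.78, with 7 of 7 above 0. Kupffer cell and macrophage markers had -0.67, with 11 of 12 below 0, and endothelial markers -0.47, with 7 of 8 below 0. In the comparisons of the 10-week diet and of atorvastatin with 10-week chow, which share that array, these markers lay in the opposite direction. Their part was not tested.

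For the diet at 10 weeks against 1 week, 26 of 44 genes were above 0, against 58.6% of all genes, and the median was 0.12, against 0.11. The median was -0.003 when all probe sets of a gene were averaged. Rps4l was the 1 gene past 2-fold (-1.76, a bound, since the 10-week signal was below the floor), against 8.45% of all genes. The highest were Rpl39 (0.95), Rpl27a (0.67) and Rplp0 (0.48), and the lowest with both signals above the floor were Rps6 (-0.59), Rplp2 (-0.53) and Rps9 (-0.49).

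Of the 9 paralogs listed, 6 have a single-symbol probe set, and 3 lay above the floor on all arrays. Rpl22l1, the paralog of Rpl22, had 2265 with atorvastatin, 1806 on the 10-week diet and 1802 on 10-week chow, and 1656 on the 1-week diet, against 2413 on 1-week chow (-0.54 at 1 week). Rps27l was between 6746.5 and 8726 on the 5 arrays, and Rpl7l1 between 477.2 and 616.8. Rpl39l and Rpl3l, known from testis and from striated muscle, stayed below the floor on all arrays, as did the probe set of Rpl12. The single-symbol probe set of Rpl14 was above the floor on 10-week chow only (190.6). Of 5 probe sets shared with a pseudogene, the 4 of the x type had signals of 1827 to 3209 on the 10-week diet, against 2792 to 7299.7 on 10-week chow, and log2 ratios of -0.61 to -1.39. On those 4 the 10-week diet array was the lowest of the 5. The other one had 1512 on the 10-week diet, against 2107 on 10-week chow (-0.48), and was lowest with atorvastatin, at 1336.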

How the data were processed

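Liver RNA was measured as biotin-labelled cRNA on 5 Affymetrix-type arrays, 1 pool of livers per group. The authors deposited intensity values on a linear scale, MAS5 signals for each probe set, per the submitters' processing notes. The genome build of the annotation is not given in the sources used here. Groups were taken from the sample titles.

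The 2% trimmed mean was 500.2 on every array as deposited, and the arrays were brought to the same value of it. The 64 control probe sets of 22690 were set aside. Signals were raised to the floor (138.8) and taken to log2. Of the rest, 20380 probe sets have 1 gene symbol; a gene is represented by its brightest one (mean log2 signal). A gene was measured in a comparison where either of its arrays exceeded the floor. A ratio with 1 side at the floor is a bound. All 48 members matched RefSeq of GRCm38.p6 by gene identifier. There is no test, as each group has 1 array, and the 2-fold rule is a rule of size. Array values carry no counts, so no counting interval applies.

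Members and lists were chosen with earlier results of these data known. The text names, per comparison, members past 2-fold and the 3 highest and 3 lowest with both signals above the floor. It also names members preset for their roles, stalk proteins and paralogs, and the 3 largest and smallest ranges. In other lists up to 3 preset genes are named. Genes of these lists past 2-fold are named for atorvastatin over the diet and for the diet over chow at each time. Some also passed 2-fold for atorvastatin over chow, the chow pair and the diet pair, and are not named. Markers past 2-fold are not named either, apart from Cdh5. Members past 1.5-fold, probe sets that disagree, and the shared probe sets of Rpl14, Rpl37, Rps6 and Rps13 were named after their values were seen.

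Alternatives were other scalings, floors, a pseudocount of 100, other choices of probe set, other fold rules and other chow references. The calculation of the ratios was run on simulated data with planted differences past 2-fold. It does not bear on ratios as small as the medians given here. Computations used Python 3.11.15 with numpy 2.4.6 and pandas 2.3.3, matplotlib 3.10.9, and limma 3.58.1 in R 4.3.3 for loess scaling.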

Additional observations from a re-analysis of the deposited data

Results flagged for a closer look

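The 18S ribosomal RNA control probe sets, which enter no comparison of genes, had an 18.9-fold higher geometric mean signal on the array of the diet with atorvastatin than on 10-week chow, 13944 against 737.4. The same control was 1002 on the 10-week diet, and it was 437.3 on the 1-week diet, against 2185 on 1-week chow. The value was singled out because it lies in data outside the main measurement and above the control array. The 5 arrays also differed in their spike-in controls, with a geometric mean of 5747 on 10-week chow, against 960.7 to 1907 on the others. The 3′ to 5′ signal ratios were 1.17 to 1.73 for beta-actin and 0.783 to 1.01 for Gapdh.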

How the results depend on the processing

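The median log2 ratio of the ribosomal protein genes kept its sign under all alternatives run for the diet with atorvastatin over the diet (0.25 to 0.33), over 10-week chow (0.05 to 0.16), and for the diet over chow at 10 weeks (-0.17 to -0.03) and 1 week (-0.23 to -0.08). It changed sign for 10-week over 1-week chow in 4 settings, with -0.07 after quantile normalization, -0.08 after loess, -0.02 with members at 8 or more times the floor and -0.01 relative to the brightest 10% of genes, the last pair of settings chosen after seeing the data. For the diet at 10 weeks over 1 week it was -0.003 when a gene's probe sets were averaged. The number of members past 2-fold differed from the main count in these cases. Shares over all genes are not given beside these counts. The counts show only how the number depended on the setting and are no result about these genes. It was 1 for atorvastatin over chow after loess. With a floor at the 20th percentile it was 1 for the diet over chow at 10 weeks, 1 for atorvastatin over chow, 4 for the chow pair and 2 for the diet pair. With a floor at the 60th percentile it was 0 for the diet over chow at 1 week and 0 for the diet pair. With a pseudocount it was 1 for the diet over chow at 10 weeks and 0 for the chow pair, and 0 for the chow pair when probe sets were averaged. With 1.5-fold as the rule it was 3 for the diet over chow at 10 weeks, 4 at 1 week, 7 for atorvastatin over the diet, 4 for atorvastatin over chow, 2 for the chow pair and 4 for the diet pair. With 3-fold it was 0 for the diet over chow at 1 week and 0 for the chow pair. Chosen after seeing the data, the 1-week chow array as reference gave 1 for atorvastatin over chow, and probe sets shared with pseudogenes gave 3 for the diet over chow at 10 weeks, 1 for atorvastatin over the diet, 3 for atorvastatin over chow, 3 for the chow pair and 4 for the diet pair. Members at 8 or more times the floor gave 0 for the diet over chow at 1 week, 0 for the chow pair and 0 for the diet pair. The cause was not tested. Of 2309 values of single genes 37 moved by more than the spread of the chow pair (SD 0.48 on the log2 scale). A reversed sign was looked for only in values past 2-fold in the main setting, which few members reached, and 0 were found. Changes of sign in smaller ratios were not counted. No paired analysis was possible because each group has 1 array. Signals near the floor, such as those of Rps25 and Rps4l, limit what can be said of dim members.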
